A study of Rattus norvegicus with 9 samples.

Results

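Genes of fatty acid uptake and mitochondrial fatty acid oxidation, with their PPAR regulators, were followed in arteries of adult rat offspring by RNA sequencing. The list named 8 genes: Cd36, Cpt1a, Acadl, Acadm, Hadha, Ppara, Pparg and Angptl4. Of these, 7 were matched by symbol among the 30452 features of the count files, and Cd36 was not analysed here. Members were taken by gene symbol.

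The samples were 3 mesenteric artery libraries of high-sucrose (HS) offspring (replicates 1, 2 and 3), 3 pulmonary artery libraries of control (CON) offspring (replicates 1, 2 and 4) and 3 mesenteric artery libraries of CON offspring (replicates 1, 2 and 3). HS dams drank 20% sucrose water during pregnancy, CON dams drank ordinary water, and both ate standard chow. Offspring were 3 to 5 months old, and their arteries were dissected under a microscope. The sources used here give neither strain nor sex, nor whether each library stands for its own animal, so p-values measure only the spread between these samples, which may be technical.

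Long-chain fatty acids enter cells through transporters such as CD36, are activated to acyl-CoA and cross into mitochondria as carnitine esters. There the acyl chain is shortened step by step to acetyl-CoA. Fatty acids also bind the nuclear receptors PPAR-alpha and PPAR-gamma, which pair with RXR on DNA and switch on genes of fatty acid use and storage. In the artery wall, oxidation of fatty acids is known in endothelium, smooth muscle and the surrounding perivascular fat, and PPAR-gamma is the master regulator of adipocytes.

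Total counts per library ran from 10388231 to 15420546. Levels are CPM, counts scaled to 1e+06 per library, on totals scaled by TMM over the 9 libraries, so that a level can be compared across libraries but not between genes of different length. At these totals, 3 counts in 1 library equal 0.198 to 0.289 CPM. The reads carry no molecular identifiers, and these values cover counting error only.

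The make-up of the samples varied within groups, most of all in pulmonary artery. All 11 of 11 cardiac muscle markers peaked in pulmonary replicate 2, with a summed level of 23390 CPM, against 1075 and 2065 CPM in pulmonary replicates 1 and 4. The mesenteric libraries lay between 34.0 and 111 CPM for this list. Its genes did not move together in pulmonary replicate 1. Actc1 was at 401 CPM or more in each pulmonary library, but Myh6 was at 2.63 CPM in replicate 1, against up to 9.33 CPM in mesenteric libraries. Pulmonary replicate 4 was the highest for 9 of 9 lymphocyte markers and for 8 of 8 lung epithelium markers. It was low in smooth muscle markers (3474 summed CPM, against 20580 and 22370 CPM in pulmonary replicates 1 and 2) and in adipocyte markers (169 CPM, against 1594 and 1831 CPM). Among mesenteric libraries the adipocyte sum was 1012, 2813 and 1920 CPM in HS replicates 1, 2 and 3, against 962, 1511 and 1478 CPM in CON replicates 1, 2 and 3. Between mesenteric HS and CON, 10 of 11 adipocyte markers had a positive log2 fold change (median 0.61), and 0 of 9 fibroblast markers (median −0.42) and 0 of 6 lymphocyte markers (median −0.61) did, while 0 of each list passed the test. In the adipocyte list the log2 fold change was 0.095 for Adipoq and −0.23 for Lep, against 1.18 for Cidec and 0.65 for Plin1. Both Cidec and Plin1 are also in the list of other PPAR targets used below. What part these marker lists had in the results that follow was not tested. The smooth muscle sum ran from 16860 to 26690 CPM in mesenteric HS and from 10290 to 40950 CPM in mesenteric CON. In such whole-tissue samples, fewer cells of a type and less RNA per cell cannot be told apart.

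**Figure D1:**
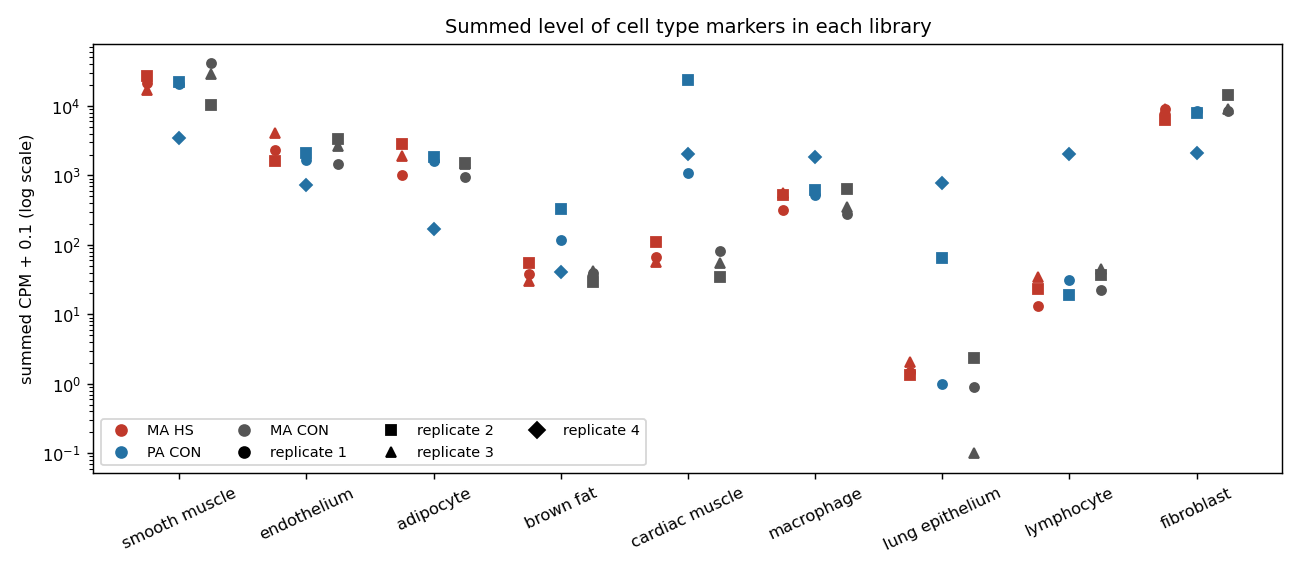
Summed level of each cell type marker list (vertical axis, summed CPM plus 0.1 on a log scale) in the 3 mesenteric HS, 3 pulmonary CON and 3 mesenteric CON libraries; each symbol is 1 library. Cardiac markers reached 23390 CPM in pulmonary replicate 2, and pulmonary replicate 4 had the highest lymphocyte and lung epithelium sums and the lowest smooth muscle and adipocyte sums.

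RefSeq promoter windows on build GRCr8 were matched for Cpt1a, Acadm, Hadha, Ppara, Pparg (2 start sites) and Angptl4. The separations of members between HS and CON described further on involve Acadl, Acadm, Angptl4, Cpt1a and Hadha. No window was matched for Acadl, and that of Hadha is not shown. The windows of Angptl4, Cpt1a and Acadm are shown. Each is the 250 bases before the start on the gene's own strand, 5′ to 3′, with motif matches in capitals. The Angptl4 window lies at chr7:15258682-15258931 (minus strand), that of Cpt1a at chr1:209995910-209996159 (plus strand) and that of Acadm at chr2:245542865-245543114 (minus strand).
Angptl4: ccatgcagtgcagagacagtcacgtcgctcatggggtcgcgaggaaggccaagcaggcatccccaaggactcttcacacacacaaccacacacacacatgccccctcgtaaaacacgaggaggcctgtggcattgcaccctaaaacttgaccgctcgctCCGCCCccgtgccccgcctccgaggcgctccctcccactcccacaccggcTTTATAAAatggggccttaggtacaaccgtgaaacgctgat
Cpt1a: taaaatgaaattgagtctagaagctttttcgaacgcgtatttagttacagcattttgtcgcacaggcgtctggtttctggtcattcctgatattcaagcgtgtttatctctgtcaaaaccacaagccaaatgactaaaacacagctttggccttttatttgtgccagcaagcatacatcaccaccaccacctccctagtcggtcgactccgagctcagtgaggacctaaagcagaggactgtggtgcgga
Acadm: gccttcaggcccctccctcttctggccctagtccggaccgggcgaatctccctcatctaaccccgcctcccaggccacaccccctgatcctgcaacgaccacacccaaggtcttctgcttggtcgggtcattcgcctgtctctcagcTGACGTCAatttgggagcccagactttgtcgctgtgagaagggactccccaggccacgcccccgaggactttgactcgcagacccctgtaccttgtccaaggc

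The search on both strands used the nuclear receptor site AGGTCA, the PPAR element AGGTCANAGGTCA, the TATA box TATAAA, the CCAAT box, the GC box GGGCGG, the E-box CACGTG and the cAMP element TGACGTCA. The PPAR element contains that receptor site. Of 33469 promoter windows of this length, 14.1% held the receptor site, 0.0508% the PPAR element, 12.9% the TATA box, 34.0% the CCAAT box, 30.5% the GC box, 5.59% the E-box and 1.59% the cAMP element. Angptl4 had a TATA box whose first base is 39 bases before the start, overlapped by a match on the other strand, and a GC box. Acadm had a cAMP element 103 bases before the start, and the Cpt1a window held none of these motifs. Neither the receptor site nor the PPAR element was found in the windows of the 6 matched genes, which says only that these letters are not in these windows.

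The first comparison set mesenteric arteries of HS offspring against those of CON offspring. Angptl4, a secreted inhibitor of lipoprotein lipase and a classical PPAR target, was higher in each of the 3 HS libraries than in any CON library. Cpt1a, the carnitine palmitoyltransferase of the outer mitochondrial membrane that limits entry of fatty acids, had a positive fold change, and Acadm, the medium-chain acyl-CoA dehydrogenase, a negative one, both with overlapping groups. No member passed the test over all genes.

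In that test, edgeR's quasi-likelihood fit across 13995 genes with Benjamini-Hochberg adjustment, 0 of the 7 members passed, and 0 genes in all did (0%). At an unadjusted p under 0.05 there were 2 of 7 members, Angptl4 and Cpt1a, against 1.99% of all genes tested. DESeq2 and limma-voom called 0 members too. Groups did not overlap for 1 member, Angptl4, on the higher side (2.82% of all genes tested) and for 0 members on the lower side (3.23%). The log2 fold change was positive for 6 of 7 members, where 50.3% of all genes had a positive one, and the members' median was 0.59 against 0.0024 for all genes tested. Without HS replicate 2, which had the highest adipocyte and lowest fibroblast sum of the mesenteric libraries, the median of the members was 0.28.

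Angptl4 was at 69.2, 51.8 and 79.9 CPM in HS replicates 1, 2 and 3, against 35.2, 44.4 and 35.5 CPM in CON replicates 1, 2 and 3. The lowest HS library thus lay above the highest CON library. Means were 67.0 ± 14.2 CPM in HS and 38.4 ± 5.19 CPM in CON (SD, n = 3 each). On the log2 scale this is 0.80 ± 0.21 (SE). The test gave an unadjusted p of 0.00589, the 17th smallest of 13995, and an adjusted p of 1.00 by edgeR. With each library left out in turn, the fold change stayed between 0.65 and 0.97.

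The adipocyte marker sum and Angptl4 were set side by side in each library. HS replicate 2, the highest mesenteric library for the adipocyte sum (2813 CPM), had the lowest Angptl4 level of the HS group. HS replicate 1 had an adipocyte sum of 1012 CPM, within the CON range, and Angptl4 at 69.2 CPM. In CON the order of the libraries was the same for both, with replicate 2 highest (1511 summed CPM and 44.4 CPM) and replicate 1 lowest (962 summed CPM and 35.2 CPM). Pulmonary replicate 4 was the lowest of the 9 libraries for both, at 169 summed CPM and 5.15 CPM. The endothelial marker sum was 2306, 1601 and 4055 CPM in HS replicates 1, 2 and 3, against 1480, 3330 and 2637 CPM in CON replicates 1, 2 and 3. Within HS and within CON the order of the libraries was that of Angptl4, while the ranges of this sum overlapped between HS and CON. The part of either marker list in the result was not tested.

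Cpt1a was at 81.3, 108 and 60.4 CPM in HS replicates 1, 2 and 3, against 59.0, 39.6 and 62.3 CPM in CON replicates 1, 2 and 3. HS replicate 3 lay within the CON range and the other two HS libraries lay above it. The log2 fold change was 0.63 ± 0.27 (SE), with an adjusted p of 1.00 by edgeR, and it was 0.41 without HS replicate 2.

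The dehydrogenases start each round of oxidation on chains of different length. Acadl, the long-chain acyl-CoA dehydrogenase, was at 95.3, 129 and 110 CPM in HS, against 109, 49.2 and 97.1 CPM in CON. Acadm was at 87.0, 114 and 86.7 CPM in HS, against 187, 87.5 and 147 CPM in CON. CON replicate 2 was the lowest CON library for both genes. For Acadm it alone of the CON libraries lay within the HS range, while for Acadl the HS range held the other two CON libraries. The log2 fold change was 0.39 ± 0.31 for Acadl and −0.55 ± 0.29 for Acadm (SE), each with an adjusted p of 1.00 by edgeR. Without CON replicate 2 these values were 0.11 for Acadl and −0.80 for Acadm, and without CON replicate 1 they were 0.61 and −0.29.

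Hadha, the alpha subunit of the mitochondrial trifunctional protein that carries out the next steps on long chains, was at 177, 152 and 121 CPM in HS, against 178, 133 and 139 CPM in CON. The group means were 150 ± 28.1 CPM in HS and 150 ± 24.5 CPM in CON (SD, n = 3 each). Groups overlapped fully, with a log2 fold change of 0.0011 ± 0.22 (SE) and an adjusted p of 1.00 by edgeR.

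The PPAR receptors themselves were measured at lower counts. Pparg was at 12.5, 29.1 and 12.7 CPM in HS, against 7.39, 16.5 and 12.2 CPM in CON. The HS mean was carried by replicate 2, the library with the highest adipocyte marker sum. That library also had the highest smooth muscle sum of the HS group (26690 CPM) and the lowest fibroblast sum of the mesenteric libraries (6237 CPM). The part of these lists was not tested. For Pparg the log2 fold change was 0.59 ± 0.44 (SE), and 0.077 without HS replicate 2. Ppara was at 2.51, 6.95 and 1.16 CPM in HS, against 2.84, 0.957 and 0.462 CPM in CON, from 118 counts in HS and 59 counts in CON. HS replicate 2 was again the highest library, with a log2 fold change of 1.28 ± 0.85 (SE) over all 6 libraries and 0.36 without it. Both receptors had an adjusted p of 1.00 by edgeR.

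**Figure D2:**
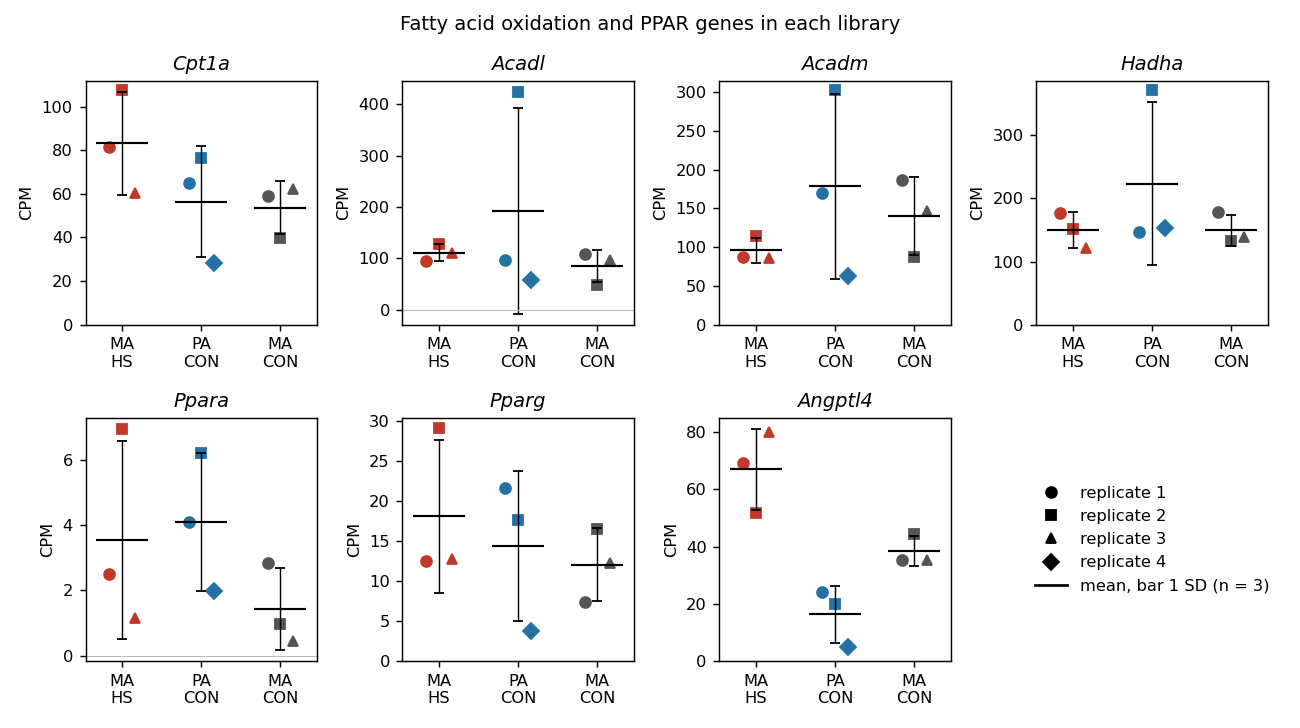
CPM (vertical axes) of the 7 genes in mesenteric HS, pulmonary CON and mesenteric CON libraries, with 1 symbol per library, the mean as a line and bars of 1 SD (n = 3). Angptl4 separates the groups, at 51.8 to 79.9 CPM in mesenteric HS, 5.15 to 24.2 CPM in pulmonary CON and 35.2 to 44.4 CPM in mesenteric CON, while pulmonary replicate 2 stands high for Acadl, Acadm and Hadha.

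The ratio of the counts of a pair of genes within a library does not depend on how libraries are scaled, and gene length cancels when libraries are compared. All 21 pairs of the 7 genes were compared, after the levels had been seen. Groups did not overlap for 4 of 21 pairs between mesenteric HS and CON, against 5.97% of 94538125 pairs of tested genes with counts in each of the 6 libraries. These were Acadl over Acadm, Acadm over Cpt1a, Angptl4 over Hadha and Cpt1a over Hadha, pairs that share genes and are not independent of each other.

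The widest gap was that of Acadl over Acadm. The ratio was 1.10, 1.13 and 1.27 in HS replicates 1, 2 and 3, against 0.582, 0.563 and 0.661 in CON replicates 1, 2 and 3. All HS libraries thus lay above all CON libraries. The part of tissue make-up in this ratio was not tested. The mean log2 ratio was 0.22 ± 0.11 in HS and −0.74 ± 0.12 in CON (SD, n = 3 each), a difference of 0.95 or 1.94-fold. It stayed between 0.89 and 1.02 with each library left out in turn. The exact permutation test, two-sided, gave p = 0.1, the smallest that 3 against 3 libraries allow, and 0.525 after Benjamini-Hochberg adjustment over the 21 pairs. A gap at least as wide was found for 0.24% of all pairs of tested genes. That share is for any 1 pair, whereas this pair was the widest of 21, so it does not measure how unusual the gap is.

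Acadm over Cpt1a had a mean log2 ratio of 0.24 ± 0.25 in HS and 1.35 ± 0.28 in CON (SD, n = 3 each). For Angptl4 over Hadha it was −1.17 ± 0.51 in HS and −1.96 ± 0.38 in CON, and for Cpt1a over Hadha −0.87 ± 0.33 in HS and −1.50 ± 0.31 in CON. The last pairs were separated by gaps of 0.028 and 0.033 on the log2 scale, which is small beside their SDs. Each of these had an exact permutation p of 0.1 and an adjusted value of 0.525. Reads that any pseudogene shares with these genes cannot be separated, since the counting is not given in the sources used here.

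**Figure D3:**
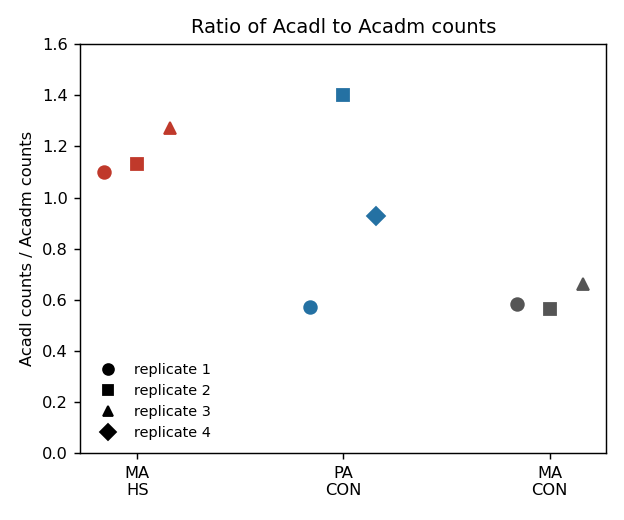
Ratio of Acadl counts to Acadm counts (vertical axis, no unit) in each mesenteric HS, pulmonary CON and mesenteric CON library. The 3 mesenteric HS libraries sit between 1.10 and 1.27, above the 3 mesenteric CON libraries at 0.563 to 0.661, and the pulmonary libraries spread from 0.572 to 1.40.

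Other genes of fatty acid handling were followed in 7 lists by role, of which 82 genes were found and 73 tested between mesenteric HS and CON. With edgeR, 0 of 73 passed, with 5 at an unadjusted p under 0.05 (1.99% of all genes tested), and DESeq2 and limma-voom called 0. Groups did not overlap for 5 genes on the higher side (2.82% of all genes tested) and 4 genes on the lower side (3.23%). The median log2 fold change of the 73 genes was 0.058 against 0.0024 for all genes tested.

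Of the carnitine shuttle, 6 of 9 genes had a positive and 3 a negative fold change, with a median of 0.064. Crot, the peroxisomal carnitine octanoyltransferase, was at 48.8, 51.4 and 45.6 CPM in HS, against 69.5, 84.4 and 88.1 CPM in CON. No HS library reached the CON range, the log2 fold change was −0.73 ± 0.16 (SE), and the unadjusted p of 0.00253 was the 4th smallest of 13995 (adjusted p of 1.00 by edgeR). Cpt2, the carnitine palmitoyltransferase of the inner membrane, was at 17.8 ± 1.13 CPM in HS and 14.6 ± 1.44 CPM in CON (SD, n = 3 each), without overlap. Cpt1c, a brain-type family member named after its values were seen, also did not overlap, at 17.4 ± 1.35 CPM in HS and 19.8 ± 1.19 CPM in CON.

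Among genes of mitochondrial oxidation, 3 of 13 had a positive and 10 a negative fold change, with a median of −0.25 that ran from −0.29 to −0.18 with each library left out. Hadh, the short-chain hydroxyacyl-CoA dehydrogenase, was at 58.5 ± 14.8 CPM in HS and 76.5 ± 9.89 CPM in CON, and Acads, the short-chain acyl-CoA dehydrogenase, at 13.0 ± 1.59 CPM in HS and 17.4 ± 4.19 CPM in CON (SD, n = 3 each). In both cases the groups overlapped. Hadhb, the partner subunit of Hadha in the trifunctional protein, named after its values were seen, had a log2 fold change of 0.039.

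Peroxisomal oxidation genes had 7 of 11 positive fold changes and a median of 0.13, which was −0.033 without HS replicate 2. Ehhadh, the peroxisomal bifunctional enzyme and a PPAR-alpha target in rodent liver, was at 3.72 ± 1.48 CPM in HS and 1.80 ± 0.75 CPM in CON. Pex11a, a factor of peroxisome division, was at 11.7 ± 3.77 CPM in HS and 6.98 ± 1.63 CPM in CON (SD, n = 3 each). Neither gene overlapped between the groups, nor did Eci2, an enoyl-CoA isomerase named after its values were seen (43.4 ± 1.17 CPM in HS, 36.3 ± 2.80 CPM in CON).

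PPAR targets other than the members had 8 of 12 positive fold changes and a median of 0.31, which was 0.080 without HS replicate 2. G0s2, an inhibitor of the triglyceride lipase ATGL, was at 16.5, 12.7 and 20.5 CPM in HS, against 27.1, 34.4 and 27.1 CPM in CON, on the lower side without overlap (log2 fold change −0.83 ± 0.23 SE, adjusted p of 1.00 by edgeR). Cidec, a lipid droplet protein of fat cells that is also in the adipocyte marker list, was at 47.9, 146 and 92.9 CPM in HS, against 33.8, 50.4 and 42.8 CPM in CON. These 2 targets thus had fold changes of opposite sign in the same libraries.

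Among genes of uptake and activation, 5 of 10 had a positive fold change (median −0.016), and 3 of 10 without HS replicate 2 (median −0.078). Fabp3, the heart-type fatty acid binding protein, was at 8.43 ± 2.40 CPM in HS and 14.5 ± 3.35 CPM in CON, and the fatty acid transport protein Slc27a1 at 51.3 ± 4.63 CPM in HS and 39.8 ± 6.61 CPM in CON (SD, n = 3 each), both without overlap. In the lipoprotein lipase group, 2 of 3 fold changes were positive (median 0.53, and 0.19 without HS replicate 2). Lpl itself, the enzyme that Angptl4 inhibits, was at 220, 623 and 462 CPM in HS, against 220, 402 and 281 CPM in CON, and its endothelial anchor Gpihbp1 at 8.45, 29.7 and 17.0 CPM in HS, against 7.86, 11.1 and 3.70 CPM in CON. Among mesenteric libraries both were highest in HS replicate 2, where Angptl4 was lowest of the HS group.

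Receptors and coregulators had 13 of 15 positive fold changes with a median of 0.18, and 9 of 15 with a median of 0.032 without HS replicate 2. The coactivator Ppargc1a was at 1.22, 6.85 and 0.289 CPM in HS, against 0.924, 0.348 and 1.39 CPM in CON. These levels came from only 91 counts in HS and 33 counts in CON. The fold change of Ppargc1a turned to −0.19 without HS replicate 2. Ppargc1b, a related coactivator, was at 7.12 ± 2.00 CPM in HS and 4.52 ± 2.28 CPM in CON (SD, n = 3 each), with overlap.

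**Figure D4:**
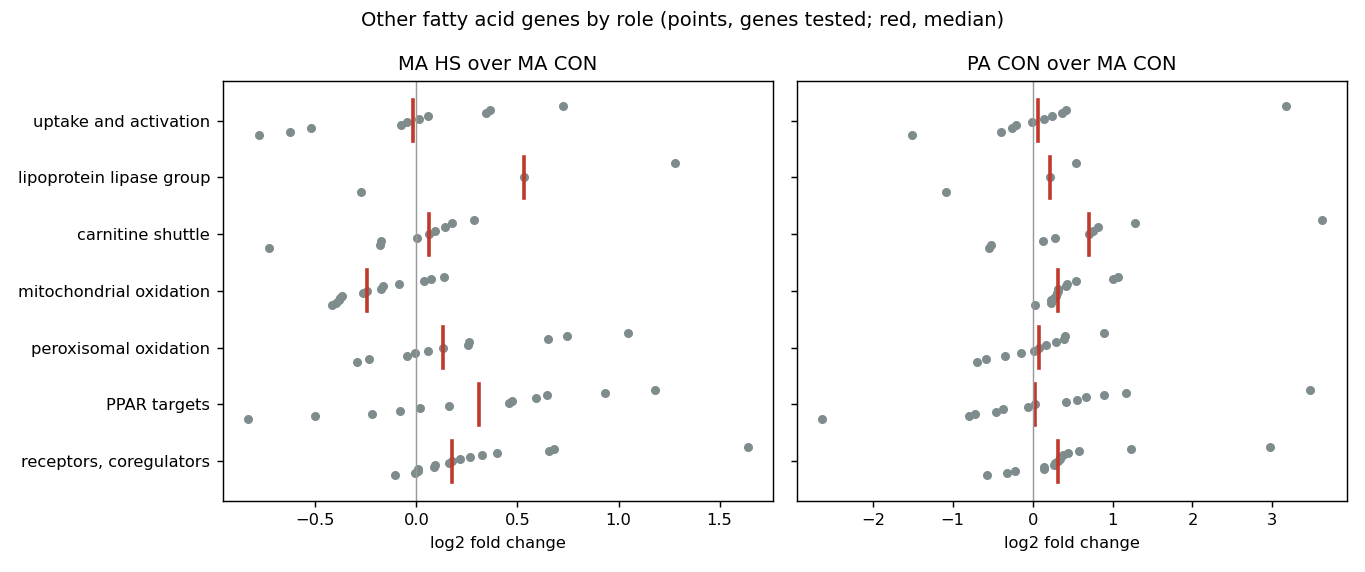
Log2 fold change (horizontal axis) of each tested gene of 7 lists of fatty acid handling, in mesenteric HS over mesenteric CON (left) and pulmonary CON over mesenteric CON (right); points are genes and red lines are list medians. Genes of mitochondrial oxidation have a median of −0.25 on the left, and 0.31 on the right, where the median turned to −0.25 without pulmonary replicate 2.

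Pulmonary arteries of CON offspring were then set against mesenteric arteries of CON offspring, with the same mesenteric CON libraries as in the first comparison. Angptl4 was lower in each pulmonary library than in any mesenteric CON library. Acadl, Acadm and Hadha were higher on average in pulmonary artery, and their fold changes were negative without pulmonary replicate 2. Cardiac marker sums were above the mesenteric range in all 3 pulmonary libraries and highest in replicate 2. Of the single cardiac markers, Actc1, Myl7 and Myl4 were above the mesenteric range in each pulmonary library. The others of the list were not above it in their lowest pulmonary library. Among these, Myh6 was at 2.63 CPM in pulmonary replicate 1. The lowest pulmonary level was 1.48 CPM for Tnnt2 and 0.247 CPM for Mybpc3, against up to 23.2 and 0.571 CPM in mesenteric libraries. No member passed the test over all genes.

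With edgeR, 0 of 7 members passed among 14315 genes tested, where 2 genes in all passed (0.014%). At an unadjusted p under 0.05 there were 0 members, against 8.53% of all genes tested, and DESeq2 and limma-voom called 0 members. Groups did not overlap for 0 members on the higher side (6.78% of all genes) and 1 member, Angptl4, on the lower side (7.33%). The fold change was positive for 6 of 7 members (54.5% of all genes), with a median of 0.32 against 0.058 for all genes. Without pulmonary replicate 2 it was positive for 2 of 7 members, with a median of −0.15.

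Angptl4 had 24.2, 19.9 and 5.15 CPM in pulmonary replicates 1, 2 and 4, against 35.2, 44.4 and 35.5 CPM in mesenteric CON replicates 1, 2 and 3. Pulmonary replicate 4, which had few adipocyte and smooth muscle transcripts, was the lowest. On the log2 scale the fold change was −1.25 ± 0.54 (SE), with an adjusted p of 0.596 by edgeR. Blood endothelium markers were lower there too, with 0 of 8 positive fold changes, a median of −0.93 and 4 of 8 without overlap (7.33% of all genes tested), and their part in the result was not tested. For Angptl4 the value was −0.80 without pulmonary replicate 4 and −0.68 with replicate 1 standing alone for the pulmonary group. Across the 3 groups, mesenteric HS was highest, mesenteric CON next and pulmonary CON lowest, and both steps were wider than the larger SD of the groups beside them.

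Acadl had 97.3, 424 and 58.6 CPM in pulmonary replicates 1, 2 and 4, against 109, 49.2 and 97.1 CPM in mesenteric CON. Acadm was at 170, 302 and 63.2 CPM in pulmonary artery, against 187, 87.5 and 147 CPM in mesenteric CON. Hadha was at 146, 372 and 152 CPM in pulmonary artery, against 178, 133 and 139 CPM in mesenteric CON. All of them were highest of the 9 libraries in pulmonary replicate 2, and in replicates 1 and 4 they lay within or below the mesenteric CON range. The log2 fold change was 1.15 ± 0.75 for Acadl, 0.32 ± 0.57 for Acadm and 0.55 ± 0.42 for Hadha (SE). Without pulmonary replicate 2 these values were −0.15, −0.29 and −0.029. The cardiac marker Myh6 was at 2.63, 6110 and 476 CPM in the pulmonary libraries, and at 9.33 CPM or less in the mesenteric libraries. Its part in these levels was not tested.

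Cpt1a, the liver-type carnitine palmitoyltransferase, had 64.7, 76.5 and 28.1 CPM in pulmonary replicates 1, 2 and 4, against 59.0, 39.6 and 62.3 CPM in mesenteric CON (log2 fold change 0.053 ± 0.40 SE). Its muscle-type relative Cpt1b was at 11.2, 202 and 16.9 CPM in pulmonary artery, against 3.90, 5.83 and 8.32 CPM in mesenteric CON, without overlap. Pulmonary replicate 2 was thus far above the others for Cpt1b but close to replicate 1 for Cpt1a. The fold change of Cpt1b was 3.63 ± 1.18 (SE, adjusted p = 0.495 by edgeR), and 1.2 without pulmonary replicate 2. Cpt1b is also a marker of brown fat, and Ucp1, which uncouples respiration in that tissue, was at 12.5, 4.11 and 0.462 CPM in pulmonary artery, against at most 0.0925 CPM in mesenteric CON. Of the other brown fat markers, Zic1 had no count in any library and Elovl3 none in the pulmonary libraries. Otop1 was at 1.19 CPM or less in pulmonary artery. Cidea and Dio2 had positive log2 fold changes (1.3 and 1.6), with overlap. Cpt1b was highest in pulmonary replicate 2, which also had the highest cardiac marker sum, and Ucp1 in replicate 1. The part of either tissue was not tested.

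Pparg had 21.6, 17.7 and 3.83 CPM in pulmonary replicates 1, 2 and 4, against 7.39, 16.5 and 12.2 CPM in mesenteric CON. Its low value in replicate 4 stood beside the low adipocyte sum of that library (169 CPM), and without it the log2 fold change was 0.70, against 0.23 ± 0.65 (SE) with all libraries. Ppara was at 4.11, 6.20 and 1.98 CPM in pulmonary artery, against 2.84, 0.957 and 0.462 CPM in mesenteric CON, with a log2 fold change of 1.48 ± 0.77 (SE, adjusted p = 0.625 by edgeR). It stayed between 1.05 and 2.47 with each library left out, and the groups overlapped through pulmonary replicate 4 and mesenteric replicate 1.

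**Figure D5:**
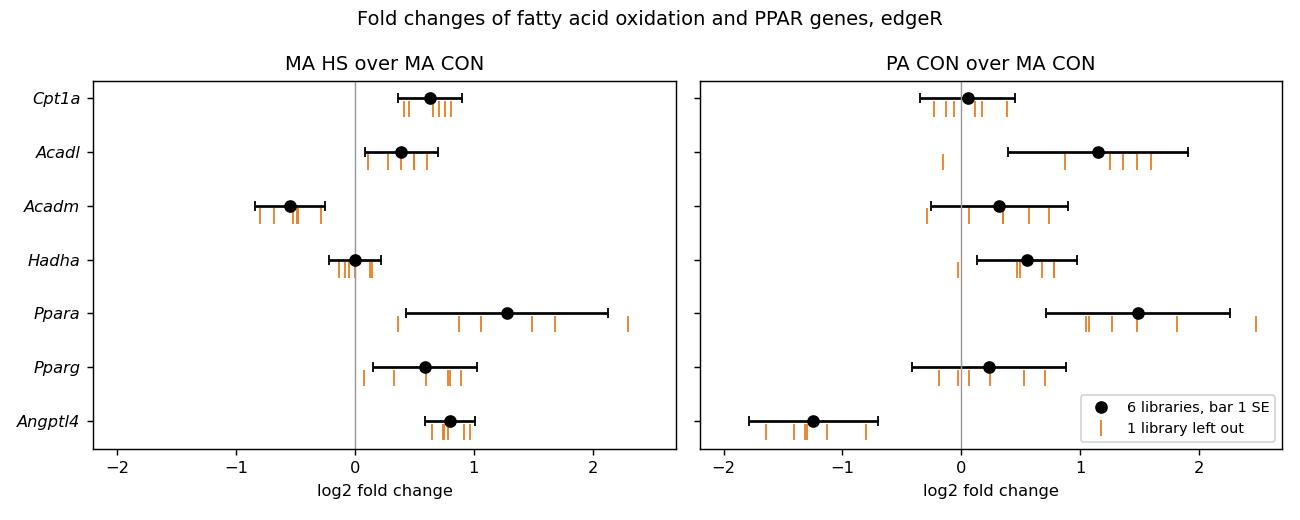
Log2 fold change (horizontal axis) of the 7 genes for mesenteric HS over mesenteric CON (left) and pulmonary CON over mesenteric CON (right), with bars of 1 SE; orange ticks are fits with 1 of the 6 libraries left out. Angptl4 keeps its sign in every such fit on both sides (0.65 to 0.97 and −1.64 to −0.80), while Acadl, Acadm and Hadha change sign on the right without pulmonary replicate 2.

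Count ratios of the 21 pairs were also compared between pulmonary and mesenteric CON libraries. Groups did not overlap for 8 of 21 pairs, against 14.8% of 97461741 pairs of tested genes, and 6 of these 8 held Angptl4. These pairs share genes and are not independent of each other. The widest gap, 1.07 on the log2 scale, was that of Angptl4 over Ppara, a gene of few counts. Its mean log2 ratio was 1.87 ± 0.61 in pulmonary and 5.14 ± 1.36 in mesenteric CON libraries (SD, n = 3 each). Angptl4 over Pparg, with a gap of 0.997, had a mean log2 ratio of 0.26 ± 0.15 in pulmonary and 1.74 ± 0.45 in mesenteric CON libraries. For each, the exact permutation p was 0.1, the smallest possible with these numbers, and the adjusted value over the 21 pairs was 0.263. Acadl over Acadm was at 0.572, 1.40 and 0.928 in pulmonary replicates 1, 2 and 4 and overlapped the mesenteric CON range.

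Among the other genes of fatty acid handling, 74 were tested between pulmonary and mesenteric CON, 0 passed with edgeR and 4 were at an unadjusted p under 0.05, where 8.53% of all genes tested were. DESeq2 called 2 of them, Plin5 among them, and limma-voom called 0. Groups did not overlap for 8 genes on the higher side (6.78% of all genes tested) and 4 genes on the lower side (7.33%). The median of the 74 genes was 0.28, against 0.058 for all genes tested.

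Plin5, the lipid droplet protein of oxidative tissues, was at 1.15, 6.63 and 2.77 CPM in pulmonary artery, against 0.198, 0.174 and 0.555 CPM in mesenteric CON, from 148 counts in pulmonary and 11 counts in mesenteric CON libraries. Its log2 fold change was 3.47 ± 0.86 (SE, adjusted p of 0.39 by edgeR and 0.0105 by DESeq2), with the highest level in pulmonary replicate 2. G0s2, named after its values were seen, was at 17.4 ± 10.6 CPM in pulmonary and 29.5 ± 4.19 CPM in mesenteric CON (SD, n = 3 each), on the lower side without overlap. PPAR targets had 7 of 13 positive fold changes (median 0.032), and 4 of 13 without pulmonary replicate 2 (median −0.36).

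Genes of mitochondrial oxidation had 13 of 13 positive fold changes and a median of 0.31, but 2 of 13 and a median of −0.25 without pulmonary replicate 2. Acat1, the mitochondrial acetoacetyl-CoA thiolase, was at 98.9, 380 and 81.9 CPM in pulmonary artery, against 111, 61.7 and 101 CPM in mesenteric CON. Acads was at 17.2, 66.7 and 28.1 CPM in pulmonary artery, against 21.1, 12.9 and 18.3 CPM in mesenteric CON. Pulmonary replicate 2 was far above the rest for both, as it was for Acadl. It was also the highest for Acadm, but less far above the rest there (302 CPM, against 187 CPM in mesenteric CON replicate 1).

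The carnitine shuttle had 7 of 9 positive fold changes and a median of 0.71, and 4 of 9 with a median of −0.095 without pulmonary replicate 2. Mlycd, the malonyl-CoA decarboxylase, was at 27.5 ± 15.6 CPM in pulmonary and 15.3 ± 1.86 CPM in mesenteric CON, with overlap, and Cpt1c, named after its values were seen, at 13.7 ± 5.67 CPM in pulmonary and 19.8 ± 1.19 CPM in mesenteric CON, without overlap (SD, n = 3 each). Uptake and activation genes had 5 of 10 positive fold changes and a median of 0.068, and 3 of 10 with a median of −0.19 without pulmonary replicate 2. Fabp3 was at 2.30, 384 and 16.9 CPM in pulmonary artery, against 13.5, 11.7 and 18.2 CPM in mesenteric CON, with pulmonary replicate 2 far above the other libraries. Slc27a6 was at 2.02 ± 1.43 CPM in pulmonary and 5.68 ± 2.41 CPM in mesenteric CON. Slc27a4, named after its values were seen, was at 23.9 ± 1.58 CPM in pulmonary and 17.6 ± 2.96 CPM in mesenteric CON. Neither of these transport proteins overlapped between the groups.

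Peroxisomal genes had 7 of 11 positive fold changes with a median of 0.084, and 4 of 11 with a median of −0.14 without pulmonary replicate 2. Acaa1a, a peroxisomal thiolase, was at 22.1 ± 1.93 CPM in pulmonary and 16.5 ± 2.33 CPM in mesenteric CON without overlap, and Ehhadh at 3.37 ± 1.41 CPM in pulmonary and 1.80 ± 0.75 CPM in mesenteric CON with overlap (SD, n = 3 each). In the lipoprotein lipase group, 2 of 3 fold changes were positive (median 0.22), and the median was −1.14 without pulmonary replicate 2. Gpihbp1 had a log2 fold change of 0.55 ± 0.55 and Angptl8, a partner of the Angptl family in lipase inhibition, of −1.08 ± 0.99 (SE).

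Receptors and coregulators had 12 of 15 positive fold changes and a median of 0.31, with 10 of 15 and a median of 0.11 without pulmonary replicate 2. Ncoa3, a coactivator of nuclear receptors, had 64.0, 65.6 and 53.8 CPM in pulmonary replicates 1, 2 and 4, against 42.6, 41.8 and 48.8 CPM in mesenteric CON. The groups did not overlap, and Ncoa1, Ncor1 and Med1, named after their values were seen, did not overlap either, with log2 fold changes of 0.28, 0.26 and 0.14. Ppargc1a was at 3.86, 17.1 and 0.529 CPM in pulmonary artery, against 0.924, 0.348 and 1.39 CPM in mesenteric CON, with overlap in replicate 4. These levels came from 292 counts in pulmonary and 33 counts in mesenteric CON libraries.

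For Cpt1a the mean was 83.1 ± 23.7 CPM in mesenteric HS, 56.5 ± 25.2 CPM in pulmonary CON and 53.6 ± 12.3 CPM in mesenteric CON (SD, n = 3 each), the last pair within 1 SD of each other. For Acadl, Acadm, Hadha and Ppara the pulmonary mean was the highest, and for Pparg the mesenteric HS mean. For these 5 genes each group in the order lay within 1 SD of its neighbour. The ratio of the highest to the lowest of the 9 libraries was 15.5 for Angptl4, 15 for Ppara, 8.61 for Acadl, 7.60 for Pparg, 4.79 for Acadm, 3.83 for Cpt1a and 3.08 for Hadha.

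The genes most like each member were sought by the Pearson correlation of log2(CPM + 1) over the 9 libraries, among genes of at least 10 CPM on average. The libraries share groups, depth and tissue make-up, so these values are descriptions. Acadm was closest to Sirt5, a mitochondrial desuccinylase (r = 0.982), Mbtps1 (r = 0.972) and Echs1, the enoyl-CoA hydratase of the same pathway (r = 0.962). Hadha was closest to Plpbp (r = 0.984), the mitochondrial ribosomal protein gene Mrpl16 (r = 0.975) and Ndufs1, a subunit of respiratory complex I (r = 0.964). Acadl was closest to Ecpas (r = 0.970), Rilpl1 (r = 0.965) and Vps26b (r = 0.965), and Cpt1a to Hip1 (r = 0.987), Tiam2 (r = 0.958) and Xirp1 (r = 0.951). Pparg was closest to Hectd4 (r = 0.979), Igf1r, the receptor of insulin-like growth factors (r = 0.955), and Tcf12 (r = 0.953). Angptl4 was closest to Cibar1 (r = 0.968), Arf2 (r = 0.950) and Cyfip1 (r = 0.950), and Ppara to Herc1 (r = 0.909), Ccdc141 (r = 0.903) and Tmem175 (r = 0.902). Between 3 and 71 of 8968 genes compared (8969 for Ppara) had r above 0.9 with a member, fewest for Ppara and most for Hadha.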

How the data were processed

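RNA was sequenced from rat arteries after selection with oligo(dT) beads, per the labels' protocols. Raw counts per feature, 1 file for each of 9 libraries, were deposited without normalization. The build is rn7 per the submitters' processing notes. Aligner, counter, annotation and strand setting: not given in the sources used here, so reads shared with pseudogenes or antisense genes are not separable. Features numbered 30452, of which 2394 lines carried 235 repeated names and were kept as separate features.

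Genes were tested with edgeR 4.0.16 in R 4.3.3 (quasi-likelihood F test, TMM, filterByExpr, robust dispersion), with the 6 libraries of a comparison in its fit and Benjamini-Hochberg adjustment over all genes tested. Calls used an adjusted p under 0.05. Each standard error is the absolute log2 fold change over the root of F. DESeq2 1.42.0 and limma 3.58.1 were alternatives, as were other normalizations, filters, sample sets and a replicate block. The fit was tested on simulated counts with large changes and a fixed dispersion, which does not measure its power at the spread of these libraries. Car3 was matched by its older name Ca3. Members and lists were chosen with earlier results of these data known. The text names all members, the genes of each other list with the smallest p in each comparison (2 per list), the 3 genes most like each member, and a few marked as named after their values were seen. Replicate libraries differed beyond counting error (chi-square over its degrees of freedom from 42.5 to 312). Promoters are from RefSeq, build GRCr8. A gene that the naming rule selects is not reported here.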

Additional observations from a re-analysis of the deposited data

How the results depend on the processing

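No member passed under any alternative, with adjusted p from 0.283 to 1.00 over both comparisons. Among the members, depth limits Ppara most, at 59 to 166 counts per group. Between mesenteric HS and CON, DESeq2 called 3 genes in place of 0. Between pulmonary and mesenteric CON, where edgeR called 2 genes, DESeq2 called 408, limma-voom 33, the fit of all 9 libraries 38 and the fit with a replicate block 36. Calls ran from 0 to 22 with 1 library left out (22 without pulmonary replicate 4), and numbered 0 when pulmonary replicate 1 stood alone for its group. Of the members and listed genes, DESeq2 called 2 (Plin5 among them, with a log2 fold change of 3.52). Hadha between HS and CON was at −0.0083 without a filter on low counts, −0.0042 with the replicate block and −0.13 to 0.14 with 1 library left out. Ppargc1a ran there from −0.19 to 2.16. Between pulmonary and mesenteric CON the ranges with 1 library left out were −0.23 to 0.39 for Cpt1a, −0.15 to 1.59 for Acadl, −0.29 to 0.73 for Acadm, −0.029 to 0.78 for Hadha, −0.19 to 0.70 for Pparg, −0.61 to 3.77 for Fabp3 and −0.034 to 1.38 for Acat1. With pulmonary replicate 1 alone, Hadha was at −0.057, Fabp3 at −2.67, Gpihbp1 at −0.39, Mlycd at −0.23, Acads at −0.037 and Ehhadh at −0.0038, where that sample was taken to vary as the mesenteric ones did. The causes were not tested. Same-numbered libraries did not deviate together (r = 0.201, −0.314 and 0.116 between HS and CON, 0.184 and −0.17 between the arteries), and 1 of 3 HS libraries correlated best with its own number, so the numbers were not taken as pairs. The block called 0 genes between HS and CON. Plain CPM on total counts left the groups without overlap for the same 1 member, Angptl4. The ratio of Acadl to Acadm was examined with each library left out after the data were seen.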
